A study of Mus musculus with 24 samples.

Results

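The genes described here are 9 members of the FOXO and muscle atrophy pathway, taken by name from the 55401 genes of the deposited count table. They are the ubiquitin ligase genes Fbxo32, Trim63, Fbxo30 and Fbxo21, the transcription factor genes Foxo1, Foxo3 and Foxo4, and Depp1 and Gadd45a, which stressed muscle can switch on. All 9 were counted in every library and passed the filter on low counts. Gastrocnemius was taken from male C57BL6 mice 24 h after a scald over 25% of the body surface (burn) or after the same anaesthesia and buprenorphine without a scald (sham). The burned mice also received resuscitation fluid, which the shams did not, so the fluid and the scald cannot be told apart. Young mice were obtained at 4 weeks of age and adult mice at 10 weeks, and they were burned at 5 and 11 weeks after a week of acclimation. There were 3 mice in each of adult burn, adult sham, young burn and young sham (4 groups), and every mouse gave 1 poly-A library and 1 small RNA library. Total counts per poly-A library ran from 4392605 to 5688512.

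FOXO proteins are transcription factors that insulin and IGF1 hold in check: AKT phosphorylates them, and phosphorylated FOXO leaves the nucleus. When that signal weakens, as in fasting, glucocorticoid excess or disuse, FOXO1 and FOXO3 enter the nucleus of the myofibre and switch on genes of the ubiquitin and autophagy systems. Fbxo32 (atrogin-1) and Trim63 (MuRF1) are the best known of these and serve as markers of muscle atrophy. RNA counts measure neither the phosphorylation nor the place of FOXO in the cell. In whole muscle, a change in the number of cells of a type and a change in RNA per cell cannot be told apart.

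Young burn replicate 2 stood apart from the other libraries, and a legend of the study leaves 1 young burn animal out. Its median correlation with its own group across 12408 genes was 0.941, against 0.960 to 0.982 for the other 11 libraries, and its summed level of 6 myofibre genes was 52439 CPM (counts scaled to library size), against 64075 or more elsewhere. Tests were therefore fitted on the other 11 libraries, and the values with all 12 stand beside them. The myofibre markers Acta1, Ckm, Myh4, Mb, Ttn and Pygm were abundant in every group, as labelled. Keratinocyte genes Krt5, Krt14 and Krt1 and the neutrophil gene Ly6g were at 0 in all libraries. Krt10, also on the keratinocyte list, was detected in every group, at 5.17 to 5.51 CPM in adult sham and 9.26 to 10.9 CPM in young sham. It was called between these groups (log2 fold change 0.93 ± 0.20 SE, adjusted p = 0.00828 by edgeR). Summed CPM of the 4 macrophage markers was 55.6 to 66.0 in adult sham and 76.5 to 106 in adult burn, and that of the 4 neutrophil markers was 1.48 to 4.14 and 5.96 to 12.9. In the young mice macrophage sums were 57.9 to 86.0 CPM in sham and 95.0 and 167 CPM in the young burn libraries tested, and neutrophil sums were 1.42 to 3.17 and 8.78 and 8.79 CPM. Myofibre sums were 72667 to 104660 CPM in young sham and 65624 and 67935 CPM in young burn, and sums of the 4 tendon markers were 379 to 407 and 139 and 261 CPM. The sum of the 4 slow fibre markers was 297 to 837 CPM in adult sham and 277 to 327 CPM in adult burn. Fibroblast markers summed to 5422 to 6951 CPM in the young libraries and to 2302 to 3115 CPM in the adult ones. In young against adult sham the collagen genes Col1a1 (log2 fold change 2.21 ± 0.22 SE, adjusted p = 5.04e-05) and Col3a1 (1.73 ± 0.23 SE, adjusted p = 0.000572) were called by edgeR. The other fibroblast markers overlapped and were not, Pdgfra (0.25 ± 0.19 SE, adjusted p = 0.404) and Dcn (0.25 ± 0.12 SE, adjusted p = 0.204 by edgeR). The part of these shifts in the results that follow was not tested.

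Fbxo32 was the member with the widest range of levels in absolute CPM. Its gene lies on the minus strand of chromosome 15 (GRCm38, chr15:58175879-58214932) and encodes the F-box subunit that gives an SCF ligase its muscle substrates. In adult sham it stood at 332, 680 and 395 CPM and in adult burn at 904, 1620.5 and 1015 CPM. In young sham it stood at 208, 64.0 and 104 CPM and in young burn at 130 and 275 CPM, with 945 CPM in the library left out. Every adult burn library was thus above every adult sham library, and every adult library was above every young library except the one left out.

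Trim63 encodes a RING ligase of the sarcomere that marks thick filament proteins for degradation. It lies on the plus strand of chromosome 4 (chr4:134315120-134329629). Adult sham libraries held 248, 346 and 390.1 CPM and adult burn libraries 638, 941 and 603 CPM. Young sham libraries held 291, 153 and 195 CPM, the young burn libraries 173 and 225 CPM, and young burn replicate 2 held 507 CPM. The adult burn libraries stood above all others, while the young burn libraries lay among the young shams.

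**Figure D1:**
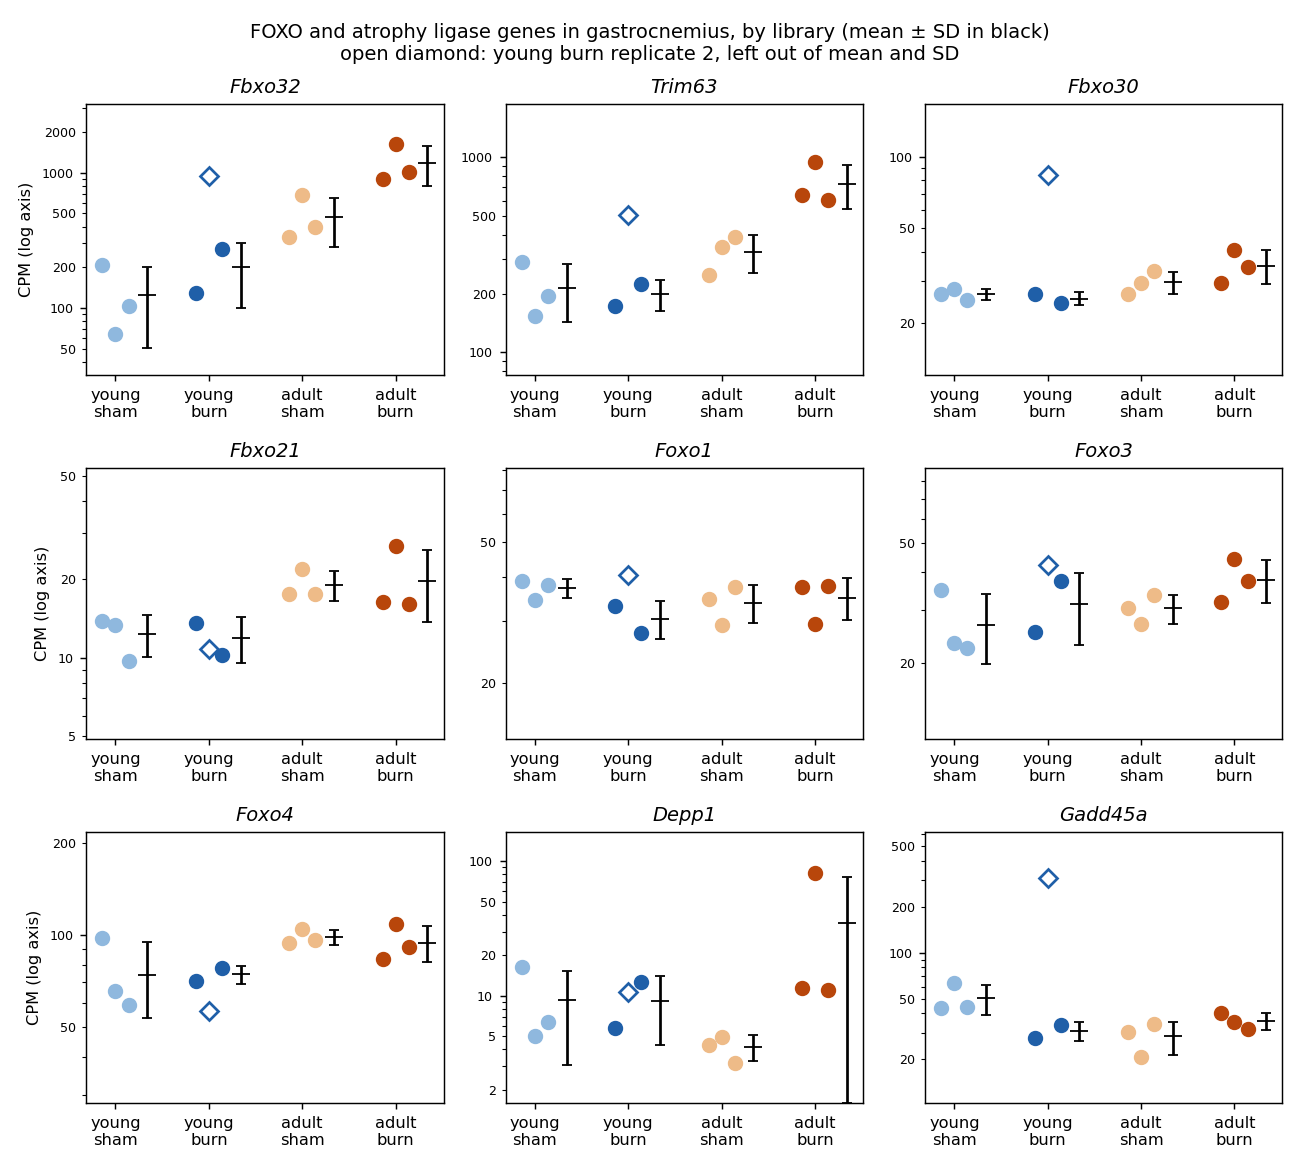
Level of each gene in the 12 poly-A libraries, in CPM on a log axis, by group. Points are libraries, black marks are the group mean ± SD without young burn replicate 2 (open diamond), and lower bars that would pass the axis end at it. The 3 adult burn libraries lie above the 3 adult shams for Fbxo32, Trim63 and Depp1, and the open diamond is the highest point of Fbxo30, Foxo1 and Gadd45a.

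After burn in the adult mice, Trim63 rose 2.21-fold. In the fit on 11 libraries it was the only one of the 9 members called by edgeR's quasi-likelihood test (log2 fold change 1.15 ± 0.22 SE, adjusted p = 0.0259). Over all 12651 genes tested in this comparison, 0.909% were called. The Fbxo32 fold change was larger, 2.51-fold, but its spread between mice was larger too (log2 fold change 1.33 ± 0.37 SE, adjusted p = 0.11 by edgeR). With the 2 adult groups fitted alone Fbxo32 was called (1.32 ± 0.26 SE, adjusted p = 0.04 by edgeR). It was called in none of the fits that left out 1 library. Depp1 had the largest fold change, 8.27-fold (log2 fold change 3.05 ± 0.75 SE, adjusted p = 0.0718 by edgeR). The sham and burn libraries did not overlap for Fbxo32, Trim63 and Depp1, against 19.9% of all genes tested. The other 6 members overlapped between the groups, with log2 fold changes from -0.06 for Foxo4 to 0.33 for Gadd45a. The call of Trim63 was lost when adult burn replicate 2 (adjusted p = 0.123), adult burn replicate 3 (0.051), adult sham replicate 1 (0.104) or adult sham replicate 2 (0.0635) was left out of the edgeR fit. With all 12 libraries the fold change of Trim63 was the same to 2 digits (log2 1.15 ± 0.35 SE), its adjusted p was 0.569 in edgeR, and none of the 9 was called, against 0.00806% of 12408 genes. In that fit 3 members had an unadjusted p under 0.05, as had 6.87% of all genes, and DESeq2 called 0.

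The Trim63 promoter is shown because Trim63 is the member called after burn in the adults. FOXO proteins bind the word GTAAACA and its close relatives, and the glucocorticoid receptor binds GAACA and TGTTC set 3 bases apart. The window holds the 250 bases before the start of the gene (RefSeq, GRCm38.p6, chr4:134314870-134315119, plus strand), in which capitals mark the matches to these words on either strand.
Trim63: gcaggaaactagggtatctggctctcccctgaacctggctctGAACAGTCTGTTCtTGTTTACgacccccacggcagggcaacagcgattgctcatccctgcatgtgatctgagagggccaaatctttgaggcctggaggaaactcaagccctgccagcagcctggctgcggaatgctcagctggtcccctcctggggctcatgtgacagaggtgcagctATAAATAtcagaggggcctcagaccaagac
The glucocorticoid word lies 208 bases before the start, and GTAAACA lies next to it on the opposite strand, 194 bases before the start, with 1 base between them. A further FOXO word, ATAAATA, lies 30 bases before the start, where its letters are also those of a TATA box. Of 32817 promoter windows of this length, 3.16% held GTAAACA, 5.17% held ATAAATA and 0.0396% held the glucocorticoid word. A match describes letters and is not a measured site.

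Depp1, a small protein that FOXO induces and that bears on autophagy and peroxisomes, was low in all groups and uneven between mice. It is on the plus strand of chromosome 6 (chr6:116650609-116652794). The 3 adult sham libraries held 4.34, 4.99 and 3.18 CPM, from 21, 22 and 15 reads. The adult burn libraries held 11.4, 81.9 and 11.1 CPM, from 68, 453 and 60 reads. Adult burn replicate 2 was thus far above the others of its group, and without it the log2 fold change fell to 1.43 (adjusted p = 0.292 by edgeR). In young sham Depp1 stood at 16.3, 5.06 and 6.34 CPM, and in young burn at 5.73 and 12.7 CPM, with 10.6 CPM in the library left out. The young groups overlapped (log2 fold change 0.01 ± 0.85 SE, adjusted p = 0.997 by edgeR). Its promoter is shown as the only other one that held a FOXO word. The word is GTAAATA, in capitals, 181 bases before the RefSeq start, and 2.73% of all windows held it. The bases printed (chr6:116650434-116650608, plus strand) end where the earlier Gencode start of the gene begins.
Depp1: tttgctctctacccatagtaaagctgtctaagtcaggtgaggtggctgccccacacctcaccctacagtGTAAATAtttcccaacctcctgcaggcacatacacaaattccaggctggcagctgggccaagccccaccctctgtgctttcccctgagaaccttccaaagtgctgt
The windows of Fbxo30, Fbxo21, Foxo1, Foxo3 and Gadd45a held none of the FOXO words searched and no glucocorticoid word, against 13.6% of all windows with at least 1 FOXO word. These windows also end at the RefSeq start. Of their bases, none lay before the earlier Gencode start for Fbxo30, and 210 did for Fbxo21, 249 for Foxo1, 190 for Foxo3 and 200 for Gadd45a. Besides the FOXO words named above, each searched on both strands, ATAAACA was searched and was in 4.16% of windows. The table of promoters used here matched 7 of the 9 members, without Fbxo32 and Foxo4.

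In young mice none of the 9 members was called after burn, where 0.664% of all genes were. At an unadjusted p under 0.05 there was 1, Gadd45a, where 16.0% of all genes were under it, and DESeq2 called 0. Gadd45a encodes a stress protein that rises in denervated muscle. It stood at 43.1, 63.0 and 44.4 CPM in young sham and at 27.6 and 33.7 CPM in young burn, a fold of 0.613 without overlap (log2 fold change -0.71 ± 0.20 SE, adjusted p = 0.112 by edgeR). Foxo1 was the other member whose groups did not overlap, at 39.0, 34.4 and 37.8 CPM in young sham and 33.0 and 27.8 CPM in young burn (log2 fold change -0.27 ± 0.15 SE, adjusted p = 0.392 by edgeR). Of all genes tested, 32.4% did not overlap between these 2 groups, one of which held 2 libraries. Fbxo32 had a log2 fold change of 0.70 ± 0.42 SE (adjusted p = 0.434 by edgeR) and Trim63 one of -0.08 ± 0.25 SE (adjusted p = 0.907 by edgeR).

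Young burn replicate 2 decided the direction of several members in the young mice. It held 307 CPM of Gadd45a, from 1683 reads, 10.0 times the mean of the other young burn libraries. It held 83.4 CPM of Fbxo30, 3.28 times that mean, and it was 4.68 times as high in Fbxo32 and 2.54 times as high in Trim63. Fbxo21, Foxo4 and Depp1 lay between 0.759 and 1.15 times the mean. With this library in the fit, the log2 fold change of young burn against young sham was 1.85 ± 0.60 SE for Fbxo32 (adjusted p = 0.128 by edgeR), 1.29 ± 0.66 SE for Gadd45a (adjusted p = 0.285) and 0.76 ± 0.36 SE for Fbxo30 (adjusted p = 0.256). None of the 9 was called in that fit either, against 0.0645% of all genes, 1 had an unadjusted p under 0.05, as had 20.3% of all genes, and DESeq2 called 0.

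**Figure D2:**
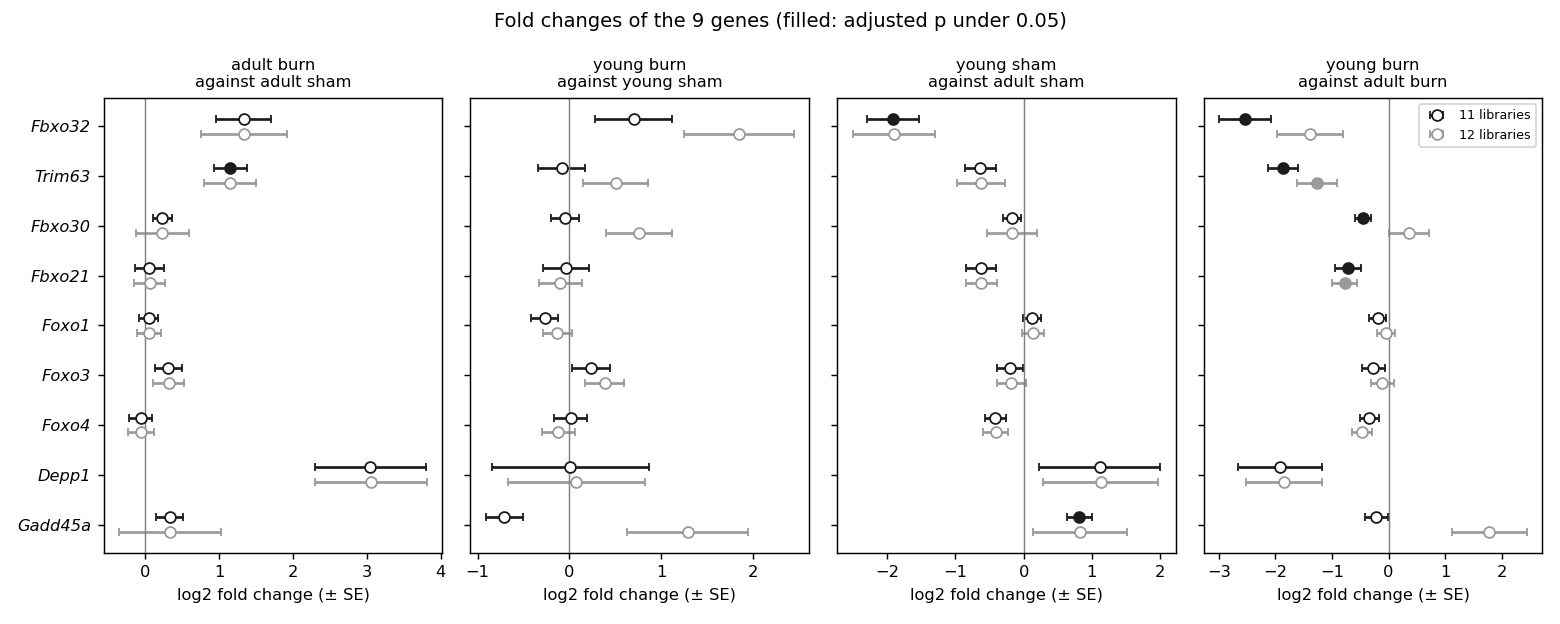
Log2 fold change ± SE of the 9 genes in 4 comparisons, from edgeR fits on 11 libraries (black) and on all 12 (grey). Filled points have an adjusted p under 0.05. Gadd45a and Fbxo30 change side between the fits in the panels with young burn.

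The uninjured mice already differed by age. Fbxo32 was lower in young sham than in adult sham, at 125 ± 74.7 CPM against 469 ± 185 CPM (SD, n = 3 each), a log2 fold change of -1.91 ± 0.39 SE (adjusted p = 0.00635 by edgeR). Gadd45a went the other way, at 50.2 ± 11.1 CPM in young sham against 28.3 ± 6.90 CPM in adult sham (log2 fold change 0.82 ± 0.18 SE, adjusted p = 0.0108 by edgeR). These were the 2 called members of 9, and 11.8% of all genes were called in this comparison. Both genes were apart in every pair of libraries, as were Fbxo21, lower in the young mice, and Depp1, higher in them (4 of 9 members, background 31.1%). Trim63 (log2 fold change -0.63 ± 0.23 SE, adjusted p = 0.0801), Fbxo21 (-0.63 ± 0.22 SE, adjusted p = 0.0735) and Foxo4 (-0.42 ± 0.16 SE, adjusted p = 0.0983) missed the edgeR threshold. The Fbxo32 call held without any 1 of the 11 libraries, and that of Gadd45a was lost without young sham replicate 2 (adjusted p = 0.0512 by edgeR). With all 12 libraries neither was called (Fbxo32 adjusted p = 0.093, Gadd45a 0.54 by edgeR), against 3.76% of all genes. There 3 members had an unadjusted p under 0.05, as had 20.2% of all genes, and DESeq2 called 0.

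Between the burned groups, the edgeR fit on 11 libraries called the 4 ligase genes, all lower in young burn, and none of the other 5 members, against 20.7% of all genes called and 9.54% called as lower in the young. Fbxo32 was lower by 2.54 ± 0.46 SE on the log2 scale, at a fold of 0.172 (log2 fold change -2.54, adjusted p = 0.00204 by edgeR). Trim63 followed at a fold of 0.275 (log2 fold change -1.86 ± 0.27 SE, adjusted p = 0.000451 by edgeR). Fbxo30, the MUSA1 ligase of the BMP pathway, stood at 29.5, 40.7 and 34.5 CPM in adult burn and 26.5 and 24.3 CPM in young burn (log2 fold change -0.45 ± 0.14 SE, adjusted p = 0.0388 by edgeR). Fbxo21, the SMART ligase, stood at 16.4, 26.8 and 16.2 CPM in adult burn and 13.6 and 10.2 CPM in young burn (log2 fold change -0.71 ± 0.24 SE, adjusted p = 0.0436 by edgeR). In 5 members the groups did not overlap, these 4 and Foxo4, against 53.2% of all genes. DESeq2 on the same 11 libraries called Fbxo32 and Trim63 but not Fbxo30 (adjusted p = 0.0811) or Fbxo21 (0.0566). With all 12 libraries Fbxo32 lost its call and its groups overlapped, at a fold of 0.381 (log2 fold change -1.39 ± 0.59 SE, adjusted p = 0.139 by edgeR and 0.229 by DESeq2). In that fit Trim63 (adjusted p = 0.0355) and Fbxo21 (0.0392) were called by edgeR, against 10.8% of all genes, and the direction of Fbxo30 turned to 0.36 ± 0.35 SE (adjusted p = 0.533). The calls of Fbxo30 and Fbxo21 were each lost without any 1 of 5 libraries: both without adult burn replicate 2 or either young burn library, Fbxo30 also without adult burn replicate 3 or adult sham replicate 2, and Fbxo21 also without adult sham replicate 1 or young sham replicate 2. Their highest adjusted p among these edgeR fits was 0.206 for Fbxo30 and 0.272 for Fbxo21, both without young burn replicate 3.

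Whether burn acted differently by age was tested by the interaction of burn and age, and none of the 9 members was called by edgeR (background 0.0949%). The log2 difference of the burn changes, young minus adult, was -1.23 ± 0.34 SE for Trim63 (unadjusted p = 0.00245, adjusted p = 0.246), -1.04 ± 0.27 SE for Gadd45a (unadjusted p = 0.00173, adjusted p = 0.241) and -3.04 ± 1.16 SE for Depp1 (unadjusted p = 0.0192, adjusted p = 0.371). These 3 members were under 0.05 unadjusted, as were 11.1% of all genes, and DESeq2 called 0. For Fbxo32 the difference was -0.63 ± 0.56 SE (adjusted p = 0.705 by edgeR). With all 12 libraries the differences of Gadd45a (0.96 ± 0.95 SE) and Fbxo32 (0.52 ± 0.82 SE) had the opposite sign, and none was called, as was none of all genes tested (0%), with 1 member and 7.20% of all genes under 0.05 unadjusted and 0 called by DESeq2. The calls of Trim63 in adults and not in young mice, and of the ligases between burned groups, are therefore not shown to be differences in the response to burn.

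Among the FOXO members the largest log2 fold change on 11 libraries was that of Foxo4, -0.42 ± 0.16 SE in young against adult sham (adjusted p = 0.0983 by edgeR). Foxo6, a FOXO gene outside the members, was called higher in young burn than in adult burn (1.20 ± 0.37 SE, adjusted p = 0.0321 by edgeR). That call was lost in 4 of the 11 fits that left out 1 library, and with all 12 libraries. Foxo6 stood at 6.15 to 10.5 CPM in adult sham and 2.53 to 4.27 CPM in adult burn, without a call. Foxo1, on chromosome 3 (chr3:52268336-52353221, plus strand), had group means from 30.4 to 37.1 CPM. Foxo3, on chromosome 10 (chr10:42181841-42276755, minus strand), is the FOXO factor best known for driving Fbxo32 in muscle. It stood at 30.4, 27.0 and 33.7 CPM in adult sham, 31.9, 44.3 and 37.3 CPM in adult burn, 34.8, 23.3 and 22.4 CPM in young sham and 25.4 and 37.4 CPM in young burn, with 42.4 CPM in the library left out. All of these groups overlapped. Its log2 fold change after burn was 0.31 ± 0.18 SE in adults (adjusted p = 0.472 by edgeR) and 0.24 ± 0.21 SE in young mice (adjusted p = 0.624 by edgeR). Foxo4, on chromosome X (chrX:101254528-101260873, plus strand), had means of 98.4 ± 5.59 CPM in adult sham, 94.4 ± 12.6 CPM in adult burn and 74.3 ± 20.7 CPM in young sham (SD, n = 3 each). Its young burn libraries stood at 70.8 and 77.9 CPM, below every adult burn library (log2 fold change -0.34 ± 0.17 SE, adjusted p = 0.177 by edgeR). No FOXO member was called in any of the 4 comparisons or the interaction, in either fit or by DESeq2. Foxo4 was called in young against adult sham without young sham replicate 1 (adjusted p = 0.00333 by edgeR) and without a filter on low counts. The intervals around the values of the FOXO genes do not show that they were equal.

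Per kilobase of exon, Trim63 and Fbxo32 stood far above the other members in the adult burn group. There Trim63 had a mean of 256 CPM per kb and Fbxo32 one of 169 CPM per kb, Foxo4 had 27.1, Depp1 25.6 and Gadd45a 20.2, and the means of Fbxo30, Foxo3, Foxo1 and Fbxo21 lay between 3.57 and 6.72 CPM per kb. The Depp1 mean rested on adult burn replicate 2, at 60.3 CPM per kb, against 8.40 and 8.20 in replicates 1 and 3. In young sham Fbxo32 had a mean of 18.0 CPM per kb, below Gadd45a at 28.4 and Foxo4 at 21.3. Trim63 was above Fbxo32 per kb in all 12 libraries, but the gap differed by age between the sham groups. In CPM not divided by exon length, Fbxo32 was above Trim63 in every adult burn library. The level of Fbxo32 per kb over that of Trim63 was 0.292, 0.170 and 0.216 in young sham and 0.545, 0.801 and 0.412 in adult sham. It was 0.304 and 0.497 in young burn, 0.760 in young burn replicate 2, and 0.577, 0.701 and 0.685 in adult burn. Ratios in the sham groups did not overlap between the ages, and those in the burned groups did once young burn replicate 2 was counted. Within the adults the ratios of burn and sham overlapped. Within the young mice every burn ratio was above every sham ratio, the nearest at 0.304 against 0.292. The ratios were not tested. This ratio does not depend on the scaling of the libraries.

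**Figure D3:**
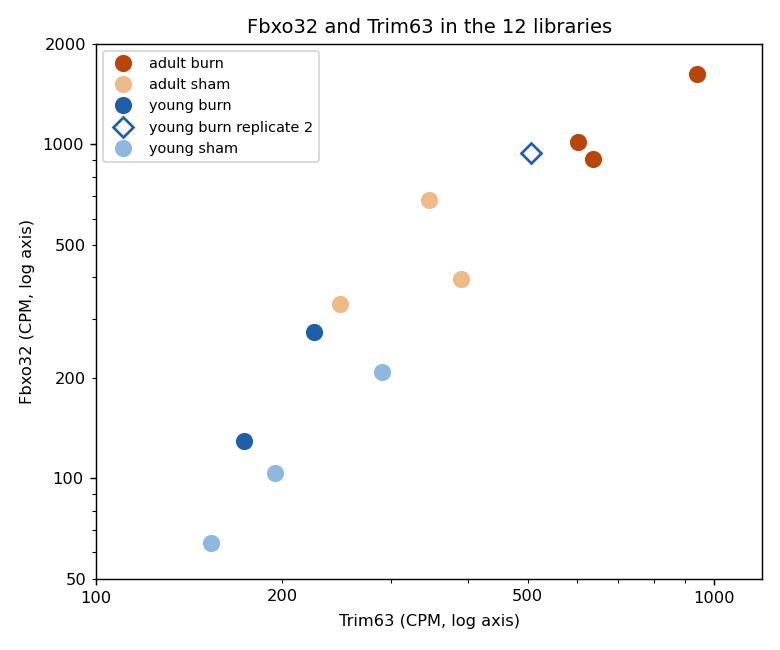
Fbxo32 against Trim63 in CPM, both on log axes, 1 point per poly-A library. Adult burn libraries lie at the upper right and young shams at the lower left, and young burn replicate 2 (open diamond, 945 and 507 CPM) lies beside the adult burn libraries and apart from the other young burn libraries (130 and 275 CPM of Fbxo32).

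Fbxo32 and Trim63 varied together. Over the 11 libraries the Pearson correlation of their log2 CPM was 0.94, and over all 12 it was also 0.94. These values describe libraries that share groups, and group differences enter them. Gadd45a and Fbxo32 correlated at -0.49 over the 11 libraries and at 0.08 over the 12, so that the negative value was seen only without young burn replicate 2. Fbxo30 and Gadd45a correlated at -0.15 and 0.80, so that their positive value rested on that library. By the same measure over the 11 libraries the 5 genes most like Fbxo32 were Filip1, Srp68, Unc5a, Lonp2 and Erbin, with correlations from 0.971 to 0.982. Those most like Trim63 were Retreg1, Srp68, Dvl3, Zbtb16 and Ppm1g, from 0.953 to 0.967. Retreg1 is a receptor for autophagy of the endoplasmic reticulum, and Zbtb16 is induced by glucocorticoids. Those most like Depp1 were Spns1, Plin4, Gas5, Ube4a and Tbc1d23, from 0.879 to 0.913. Over 12 libraries Retreg1, Erbin, Hdlbp, Eif4g1 and Gaa led for Fbxo32 (0.965 to 0.972), Retreg1, Zswim4, Fbxo32, Ppm1g and Zfyve1 for Trim63 (0.941 to 0.965), and Plin4, Sesn1, Gm24245, Llgl2 and Ppp1r35 for Depp1 (0.823 to 0.884).

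Genes around the members were read from 7 lists, which like the members were chosen with earlier results of these data known. After burn in the adults edgeR called 3 of the 80 listed genes tested (3.75%, each gene counted once), where 0.909% of all genes were. Given how the lists were chosen, setting these shares side by side is not a test. Of 20 further FOXO targets, 16 had a log2 fold change above 0 after burn in the adults, with a list median of 0.37 against 0.00 for all genes, and 1 was called. It was Eif4ebp1, a brake on translation, which rose 2.48-fold from 89.6 ± 28.8 to 223 ± 29.1 CPM (SD, n = 3 each, log2 fold change 1.31 ± 0.23 SE, adjusted p = 0.0179 by edgeR). Of 10 glucocorticoid response genes, 9 were above 0 with a list median of 0.62, and 1 was called. It was Zbtb16, a transcriptional repressor, which rose 2.01-fold from 19.7 ± 3.92 to 39.6 ± 2.59 CPM (SD, n = 3 each, log2 fold change 1.00 ± 0.20 SE, adjusted p = 0.0283 by edgeR). The exception was the glucocorticoid receptor gene Nr3c1, with a log2 fold change of -0.31 ± 0.09 SE (adjusted p = 0.135 by edgeR). Of 10 ATF4 targets 2 rose, Eif4ebp1 and Atf4 itself (log2 fold change 0.44 ± 0.10 SE, adjusted p = 0.0485 by edgeR), and 5 were above 0, with a median of 0.03. With 1 library left out, the call of Atf4 was lost in 8 of 11 edgeR fits (highest adjusted p = 0.212). That of Eif4ebp1 was lost without adult burn replicate 2 or 3 or adult sham replicate 1 or 3 (highest adjusted p = 0.075), and that of Zbtb16 without adult burn replicate 2 or 3 or adult sham replicate 1 or 2 (highest adjusted p = 0.121 by edgeR). None was called of 14 genes of the insulin, IGF1 and AKT arm (median 0.16, 11 above 0), of 17 other muscle ubiquitin ligases (median 0.03, 10 above 0), of 7 denervation genes tested of 10 (median -0.15, 2 above 0) or of the 3 paralogs Foxo6, Gadd45b and Gadd45g (median 0.07, 2 above 0). No listed gene was called in this comparison with all 12 libraries by edgeR or DESeq2, where edgeR called 0.00806% of all genes.

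In young mice no gene of the 7 lists was called after burn by edgeR, where 0.664% of all genes were. DESeq2 called 4 listed genes, among 191 genes in all. The list medians lay between -0.63 for the 3 paralogs and 0.18 for the denervation genes, with 0.03 for the further FOXO targets (11 of 20 above 0) and 0.12 for the glucocorticoid genes (6 of 10 above 0). Eif4ebp1 had a log2 fold change of 0.87 ± 0.26 SE (adjusted p = 0.121 by edgeR) and Zbtb16 one of 0.18 ± 0.25 SE (adjusted p = 0.784 by edgeR). In the interaction of burn and age edgeR called 1 of the 80 listed genes tested (1.25%), where 0.0949% of all genes were called. It was Klf2, a FOXO1 target known from lymphocytes and endothelium. It went from 43.3 ± 5.51 to 28.1 ± 6.31 CPM in the adults (SD, n = 3 each) and from 41.1 ± 9.97 CPM (SD, n = 3) to 69.9 and 73.4 CPM in the young mice, a log2 difference of 1.44 ± 0.25 SE (adjusted p = 0.0475 by edgeR). Young burn replicate 2 held 34.9 CPM of Klf2, and with it the difference was 1.15 (adjusted p = 0.683 by edgeR). The call was lost in 8 of the 11 fits that left out 1 library. The sum of the 4 endothelial markers Pecam1, Cdh5, Kdr and Tie1, of which none was at 0, was 253 to 346 CPM in young sham and 310.0 and 382 CPM in young burn, and 245 to 269 CPM in adult sham and 229 to 253 CPM in adult burn. Of these markers Kdr was called lower after burn in the adults (log2 fold change -0.70 ± 0.15 SE, adjusted p = 0.0374 by edgeR), and the others overlapped there. In young burn Pecam1 (0.43) and Tie1 (0.61) were above every young sham library without a call, and Cdh5 and Kdr overlapped. The log2 differences of the 4 markers in the interaction were from 0.27 to 0.61, with none called, and their part in that of Klf2 was not tested.

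**Figure D4:**
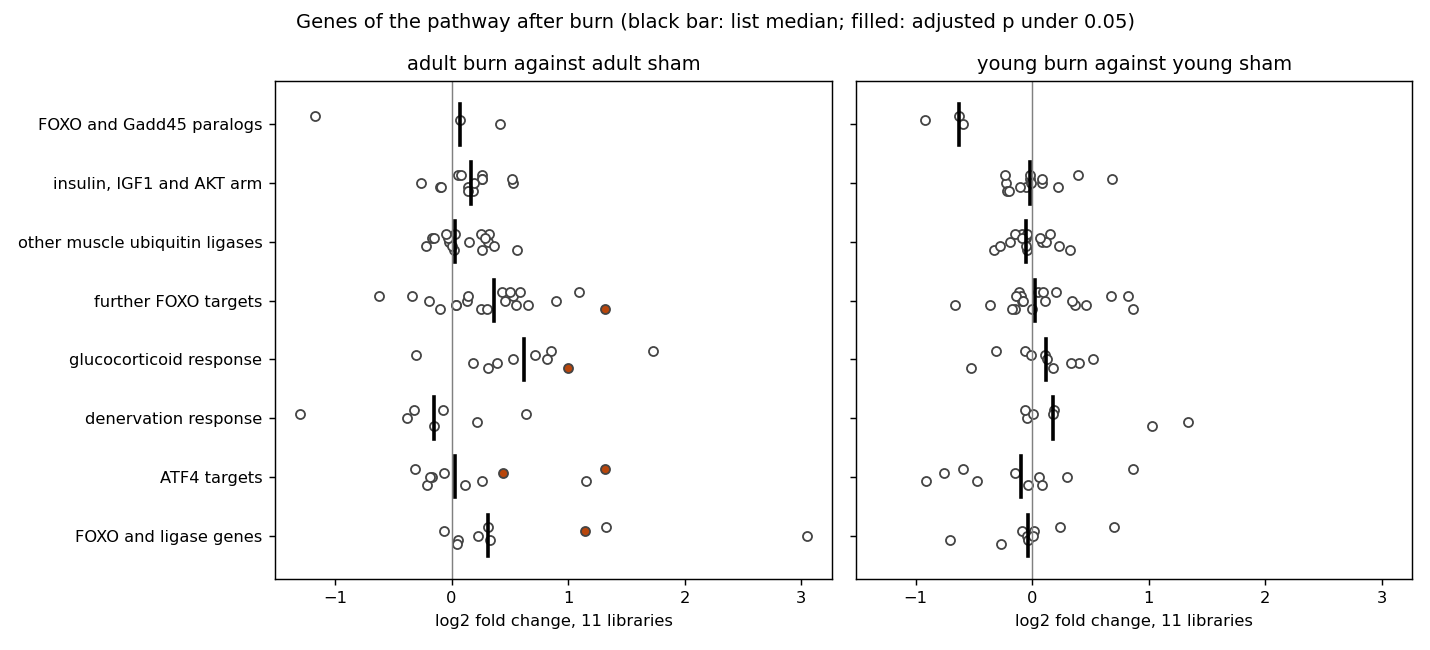
Log2 fold change after burn in adult (left) and young mice (right) for the genes of each list and for the 9 FOXO and ligase genes, from the edgeR fit on 11 libraries. Black bars are list medians and filled points have an adjusted p under 0.05. The median of the glucocorticoid list is 0.62 on the left and 0.12 on the right, and no point is filled on the right.

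In young against adult sham 14 of the 80 listed genes tested were called (17.5%, each gene counted once), where 11.8% of all genes were. As the lists were chosen with earlier results of these data known, setting these shares side by side is not a test. Of the 14 genes of the insulin, IGF1 and AKT arm 3 were higher and 3 lower. Igf1, the growth factor upstream of AKT, was higher at 163 ± 31.6 against 72.7 ± 5.70 CPM (SD, n = 3 each, log2 fold change 1.15 ± 0.14 SE, adjusted p = 0.000305 by edgeR). The insulin receptor substrates were lower, Irs1 by a log2 fold change of -1.26 ± 0.30 SE (adjusted p = 0.0143) and Irs2 by one of -1.05 ± 0.16 SE (adjusted p = 0.00112 by edgeR), as was the kinase gene Akt2 (-0.55 ± 0.14 SE, adjusted p = 0.0205). Trim54, the MuRF3 paralog of Trim63, was the 1 of 17 other ligases that was called (log2 fold change -0.77 ± 0.15 SE, adjusted p = 0.00486 by edgeR). Of the FOXO targets, the mitophagy receptor gene Bnip3 was lower (-0.94 ± 0.21 SE, adjusted p = 0.0104) and Sesn3, a sestrin, was higher (0.84 ± 0.21 SE, adjusted p = 0.0173 by edgeR). Of 7 denervation genes tested 3 were higher, among them the myogenic factor Myog (1.69 ± 0.29 SE, adjusted p = 0.00246) and the adhesion gene Ncam1 (0.84 ± 0.18 SE, adjusted p = 0.00906), together with the acetylcholine receptor gene Chrna1 (0.72 ± 0.20 SE, adjusted p = 0.0275 by edgeR). Musk, the receptor kinase of the synapse, was lower (-2.44 ± 0.36 SE, adjusted p = 0.000907 by edgeR). Gadd45g, a paralog of Gadd45a, was lower (-1.48 ± 0.37 SE, adjusted p = 0.0181 by edgeR), opposite in sign to Gadd45a. No glucocorticoid or ATF4 gene was called there. Leaving out 1 library lost the calls of Chrna1 in 5 of 11 fits, of Akt2 and Gadd45g in 4, of Sesn3 in 3, of Bnip3 in 2 and of Irs1 in 1. The fit on all 12 libraries called 6 listed genes in place of 14, against 3.76% of all genes.

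Between the burned groups 35 of the 80 listed genes tested were called, or 43.8%, where 20.7% of all genes were. With all 12 libraries 14 were called, or 17.5%, where 10.8% of all genes were. The choice of the lists with earlier results of these data known can raise such shares, so they are not a test. Of the 17 other ligases 5 were lower in young burn and none was higher, among them Trim54 (log2 fold change -1.01 ± 0.17 SE, adjusted p = 0.00128 by edgeR), Fbxo40, Fbxo31 and the SCF scaffold gene Cul1, the last 3 with log2 fold changes from -0.67 to -0.53. Of the glucocorticoid genes 3 were lower in young burn, Fkbp5 (-1.31 ± 0.44 SE, adjusted p = 0.0449), Zbtb16 (-1.14 ± 0.23 SE, adjusted p = 0.00389) and Klf9 (-0.71 ± 0.19 SE, adjusted p = 0.016), and Nr3c1 was higher (0.31 ± 0.10 SE, adjusted p = 0.0413 by edgeR). Of the FOXO targets 6 were lower and 2 higher, with Cited2 (-1.02), Pdk4 (-0.94), Sesn3 (1.04) and Klf2 (1.35) the furthest from 0 on the log2 scale. Of the AKT arm 7 were lower and 1 higher, with Igf1 at 0.96, Akt2 at -0.83, Irs2 at -0.70 and Gsk3b at -0.70. ATF4 targets gave 3 lower and 1 higher: Chac1 (-2.40), Atf4 (-0.91), Eif4ebp1 (-0.76) and Psat1 (1.00). Of the paralogs Gadd45g (-2.49) and Gadd45b (-0.61) were lower and Foxo6 (1.20) was higher. The denervation genes Myog (2.87), Ncam1 (1.10) and Chrna1 (0.98) were higher and Musk (-1.32) was lower. Leaving out 1 library lost the calls of Nr3c1 in 7 of 11 fits and of Fkbp5, Fbxo31, Chac1 and Eif4ebp1 in 6. All of these named genes had an adjusted p under 0.05 in the edgeR fit on 11 libraries, and the comparison shares its libraries with those above.

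MicroRNAs known to bind messenger RNAs of the members were read from the small RNA libraries of the same mice. These are miR-23a, which acts on Fbxo32 and Trim63, miR-182, which acts on Foxo3, and miR-486, which acts on Foxo1. Their seeds, the bases that pair with a target, are in capitals (bases 2 to 8) in the RefSeq mature sequences, shown because the seeds differ and the microRNAs are not of 1 family.
mmu-miR-23a-3p: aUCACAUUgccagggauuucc
mmu-miR-182-5p: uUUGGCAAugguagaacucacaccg
The count table gives entries for precursors (mmu-mir-23a, mmu-mir-182, mmu-mir-486a and mmu-mir-486b) and does not separate arms, and total counts per small RNA library ran from 1704531 to 3149396. The 486a and 486b precursors share near-identical sequence, so their reads cannot be assigned with certainty.

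No entry among the 4 was called after burn at either age, and neither was any of the 299 entries tested (0%). mir-23a had group means from 1492 to 1718 CPM, with a log2 fold change after burn of -0.16 ± 0.13 SE in adults and -0.20 ± 0.13 SE in young mice (adjusted p = 0.714 and 0.598 by edgeR). mir-182 was scarce, from 9 to 80 reads per library. It stood at 23.4, 18.4 and 9.58 CPM in adult burn and at 5.79, 16.7 and 3.47 CPM in adult sham, which overlapped (log2 fold change 1.07 ± 0.58 SE, adjusted p = 0.712 by edgeR). mir-486a stood at 2309, 2589 and 2404 CPM in young burn and 1865, 1805 and 1567 CPM in adult burn. It was higher in young burn (log2 fold change 0.48 ± 0.19 SE, adjusted p = 0.038 by edgeR), as was mir-486b (0.53 ± 0.20 SE, adjusted p = 0.0323 by edgeR), where 55.2% of all entries were called. Neither call held without adult burn replicate 2 or 3 or young burn replicate 2 or 3, and 1 of them was lost without adult burn replicate 1. In young against adult sham, where 56.2% of entries were called, none of the 4 was, and 2 were when adult sham replicate 3 was left out.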

How the data were processed

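Poly-A and small RNA libraries were made from the gastrocnemius of the same 12 mice, 3 per group, and read as paired 75-base reads. The authors trimmed and aligned the reads to GRCm38 with STAR 2.7.5c and deposited whole-number counts per gene (Gencode M25) and per miRNA precursor, the latter counted with featureCounts 2.0.1, and the counts were used here as deposited. The strand used in counting is not given in the sources. Names, positions and exon lengths came from Gencode M21, which matched 55141 of 55401 gene IDs.

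Genes were kept by filterByExpr (minimum count 10, minimum total 15), scaled by TMM and fitted with 1 mean per group in edgeR 4.0.16 (R 4.3.3), with quasi-likelihood tests, two-sided and Benjamini-Hochberg adjusted over all genes tested, called at an adjusted p under 0.05. The fit left out young burn replicate 2, the animal missing from a heat map of the study, and was repeated with all 12 libraries. The small RNA fit used all 12. CPM were scaled over all 12 libraries. SE is the log2 fold change divided by the root of F, and correlations used log2 CPM with a prior count of 2. Scripts were tested on simulated counts. Alternatives were DESeq2 1.42.0, its size factors in edgeR, no filter, the replicate block, the compared groups alone and leaving out each library. Figures used matplotlib.

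The members, gene lists and miRNAs were chosen with earlier results of these data known. A further gene considered for the lists is not reported here and is in no count. Every member was named, with the called genes of each list (at most 4 per comparison, by size of change) and the 5 genes most correlated with Fbxo32, Trim63 and Depp1. Counting error sets the precision of low genes, of which Depp1 had 15 to 453 reads per library.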

Additional observations from a re-analysis of the deposited data

Results flagged for a closer look

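Young burn replicate 2, which the tests on 11 libraries left out, held more RNA of 6 members than every young sham library. These were Fbxo32 (945 CPM), Trim63 (507 CPM), Fbxo30 (83.4 CPM), Foxo1 (40.5 CPM), Foxo3 (42.4 CPM) and Gadd45a (307 CPM). It was the highest of all 12 libraries in Fbxo30, Foxo1 and Gadd45a and the lowest in Foxo4. This library also had the lowest myofibre marker sum (52439 CPM) and the highest neutrophil marker sum (27.0 CPM), and the part of either in its levels was not tested.

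In the edgeR fit on 11 libraries Klf2 was the 1 listed gene called in the test of the difference between the ages. Its log2 difference was 1.44 ± 0.25 SE, young minus adult (adjusted p = 0.0475 by edgeR). Its adult burn libraries were all below the adult shams (log2 fold change -0.62) and the 2 young burn libraries in that fit were above the young shams (0.82). Young burn replicate 2, at 34.9 CPM, lay within the young sham range of 33.6 to 52.4 CPM. The call of Klf2 was lost in 8 of the 11 edgeR fits that left out 1 library. With all 12 libraries edgeR called no listed gene in this test, and DESeq2 on 11 libraries called 2.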

How the results depend on the processing

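With all 12 libraries edgeR and DESeq2 each called 0 members in adult burn against sham, 0 in young against adult sham and 2 in young against adult burn, in place of 1, 2 and 4, and 0, 6 and 14 listed genes by edgeR and 0, 8 and 12 by DESeq2, in place of 3, 14 and 35. In young burn against sham DESeq2 on 12 libraries called 8 listed genes, and in the interaction both tools called 0. Directions then turned in young burn against sham for Trim63 (0.50 in edgeR, 0.52 in DESeq2), Fbxo30 (0.76, 0.78), Foxo4 (-0.12, -0.11) and Gadd45a (1.29, 1.32), in young against adult burn for Fbxo30 (0.36, 0.36) and Gadd45a (1.78, 1.79), and in the interaction for Fbxo32 (0.52, 0.53), Fbxo30 (0.53, 0.54), Foxo3 (0.072, 0.082), Foxo4 (-0.059, -0.052) and Gadd45a (0.96, 0.98).

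DESeq2 on 11 libraries called 2 members in adult burn against sham (Trim63 and Depp1) and 2 in young against adult burn, with 6, 4 and 2 listed genes in adult burn, young burn and the interaction, and Depp1 turned to -0.0042 in young burn. Without a filter on low counts 3, 2, 6 and 4 members were called in adult burn, young burn, the sham groups and the interaction, and 25, 12, 27 and 12 listed genes, and 2 of the miRNA entries in the sham groups. That fit gave far smaller p-values, as for Fbxo32 between the burned groups (adjusted p = 1.26e-69 in edgeR, in place of 0.00204), and the cause was not tested. The share of all genes called in that fit is not given here, so its counts cannot be read as results about the members or lists. The compared groups alone gave 2 members each in adult burn and in young against adult burn, Fbxo32 and Trim63 in both, and 5 listed genes in adult burn. DESeq2 size factors in edgeR gave the same counts of members.

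The labels do not say whether the replicate numbers pair the mice. The correlation of deviations of same-numbered mice was 0.042, 0.14 and -0.094 in the adults and -0.197, -0.02 and 0.049 in the young. The deviations were taken from means of few libraries, young burn replicate 2 among them, so these values do not decide it. With the replicate block 0 members were called in adult burn and 2 in young against adult burn, and 1, 22 and 0 listed genes in adult burn, young against adult burn and the interaction. Trim63 in adult burn then had an adjusted p of 0.0632 in edgeR. The block turned Fbxo30 (0.0086) and Fbxo21 (0.12) in young burn and Fbxo21 in the interaction (0.088), and called 1 miRNA entry in the sham groups.

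Leaving out 1 library at a time gave 0 to 2 members in adult burn, 0 in young burn and the interaction, 1 to 4 in the sham groups and 2 to 5 between the burned groups, with 0 to 5, 0 to 2, 6 to 21, 12 to 37 and 0 to 1 listed genes in adult burn, young burn, the sham groups, the burned groups and the interaction. It gave 0 to 2 miRNA entries in each age comparison. Log2 fold changes whose sign turned ranged from -0.22 to 0.18 (Fbxo21), -0.046 to 0.16 (Foxo1) and -0.17 to 0.014 (Foxo4) in adult burn. In young burn they ranged from -0.28 to 0.21 (Trim63), -0.11 to 0.014 (Fbxo30), -0.26 to 0.15 (Fbxo21), -0.060 to 0.50 (Foxo3), -0.14 to 0.26 (Foxo4) and -0.65 to 0.69 (Depp1), and in the interaction from -0.31 to 0.19 (Fbxo21), -0.37 to 0.19 (Foxo3) and -0.076 to 0.33 (Foxo4). Where a young burn library was left out, the other was assumed to vary like the other groups. Of single genes, 804 values kept direction and side of the threshold with 1 library left out and 479 under the other alternatives. A further 127 and 84 lost a call, 6 and 17 gained 1, and 31 and 26 changed direction. A value not called in the main fit that stayed uncalled counts as kept, so the counts do not measure how firm the calls are.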
